A study of Homo sapiens with 9 samples.

Results

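The plastins, the tissue actins and a group of smooth muscle actin-binding genes were followed on 9 arrays of HSF-6, a line of human embryonic stem cells. The set held 10 genes: LCP1, PLS1 and PLS3 (plastins), ACTG2, ACTA1, ACTA2 and ACTC1 (actins), and TAGLN, CNN1 and MYL9 (smooth muscle actin binders and a myosin light chain). Their probe sets were all those annotated to a member gene alone, 16 of the 54613 probe sets on the array that were not controls, and 13 of these passed the filter on low signals with at least 1 for every gene. LCP1 and ACTG2 headed the set and were chosen by their measured values on these same arrays. Their values are therefore given as a description with no p-value, and the other 8 genes were tested. In all, 19775 genes had a probe set of their own on the array.

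Total RNA was hybridised to Affymetrix human U133 Plus arrays in 3 groups of 3. HSF-6 (8) cells formed a control group and a group given butyrate and DZNep, and the third group was HSF-6 (S9) cells given both compounds. "Treated" means given both. All cells were collected after 11 passages and 6 days of growth, per the labels, which give no dose and do not say what separates the (8) and (S9) sublines. No untreated (S9) group was analysed here, so in the comparison of treated (S9) with control (8) cells the subline and the treatment cannot be told apart.

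Actin filaments are built from actin monomers, and plastins tie the filaments into tight bundles. The cytoplasmic actins are made in all cells, whereas ACTA1, ACTC1, ACTA2 and ACTG2 encode the skeletal, cardiac, vascular smooth muscle and enteric smooth muscle actins and are low in most other cells. Many muscle actin and smooth muscle genes are switched on by serum response factor (SRF) at a DNA element called the CArG box, together with coactivators of the myocardin family, some of which are held in the cytoplasm by monomeric actin. Butyrate inhibits histone deacetylases, and DZNep inhibits S-adenosylhomocysteine hydrolase, which lowers histone methylation.

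The sequences before the start sites of 3 of the actin genes show where CArG boxes lie in members whose signals moved together across the arrays, and LCP1 is shown beside them as the plastin whose signal varied most relative to its mean. RefSeq promoter windows (GRCh38.p14; 300 bases, 250 before and 50 after a start) were present for 8 of the 10 genes, 14 windows in all. TAGLN and MYL9 had no window. A CArG box was taken as CC, then only A or T, then GG, 10 bases in all. It was searched for on both strands (the element reads the same on each), and 3 of the 14 windows held one, in ACTG2, ACTA1 and ACTC1. Of all 35116 windows in the table, 454 (1.29%) held one. Near matches were not counted: an ACTA2 window holds ccctatatgg and ccttgtttgg, each 1 base off this form. The 150 bases printed end at the base before the start site, 5′ to 3′ on the gene's strand, with the CArG boxes in capitals. ACTG2 is at chr2:73892858-73893007 on the plus strand, with boxes beginning 110 and 73 bases before the start. ACTA1 is at chr1:229434095-229434244 on the minus strand, with a box 97 bases before the start. ACTC1, at 1 of its 3 start sites in the table, is at chr15:34795550-34795699 on the minus strand, with a box 109 bases before the start. LCP1 is at chr13:46182178-46182327 on the minus strand, and no CArG box was found in its window. A match is a description of the sequence and does not show that a factor was bound in these cells.
ACTG2: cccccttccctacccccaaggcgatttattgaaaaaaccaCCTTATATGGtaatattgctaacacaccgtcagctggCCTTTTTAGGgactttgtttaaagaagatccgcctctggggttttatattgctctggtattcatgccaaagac
ACTA1: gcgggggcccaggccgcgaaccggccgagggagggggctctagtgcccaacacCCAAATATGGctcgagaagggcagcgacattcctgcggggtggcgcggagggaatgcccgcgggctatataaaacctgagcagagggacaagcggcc
ACTC1: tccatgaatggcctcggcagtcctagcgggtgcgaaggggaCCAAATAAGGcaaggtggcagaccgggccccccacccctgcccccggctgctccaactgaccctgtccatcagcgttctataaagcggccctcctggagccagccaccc
LCP1: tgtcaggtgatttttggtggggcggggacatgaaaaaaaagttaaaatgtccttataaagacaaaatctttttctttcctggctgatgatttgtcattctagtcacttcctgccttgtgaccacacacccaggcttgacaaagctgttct

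The values are MAS5 signals, a linear intensity scaled to the same trimmed mean (500.1) on every array, with a median signal of 64.8 to 82.9. The third arrays of the 3 groups had mean 18S ribosomal RNA signals of 723.5 to 2149.2, against 316.4 to 512.8 on the other 6 arrays. The third treated (8) array also stood apart in many member genes, so for the members it moved most the difference between treated and control (8) cells is also given without it. The third control array was kept there. It was the highest control for LCP1, ACTG2, ACTA1, ACTA2, ACTC1 and TAGLN (brighter probe sets), by a log2 of 0.11 to 1.25 over the mean of the others. For these the values are lower than with the third arrays of both groups left out. Leaving out an array also changes the spread shared by all groups, and so the SE and p of comparisons without it. The labels mark the arrays of a group only by primes and do not say whether they are separate cultures, so p-values measure the spread between these arrays, which may be technical. Differences are means of log2(signal + 16) with their SE from 1 limma model of all 9 arrays, so those of dim probe sets are understated. A probe set was called when its adjusted p (Benjamini-Hochberg over 29325 kept probe sets) was under 0.05 and its change at least 2-fold. Signals of different probe sets are on different scales and are not set against each other. With 3 arrays a group the precision is limited, and in whole cultures fewer cells of a type and less RNA per cell cannot be told apart.

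Among the plastins, LCP1, which was chosen by its values, had the widest range of signals relative to its mean. LCP1, which encodes the plastin of white blood cells and is also active in many tumour cells, had signals of 465, 351 and 539.5 on the control arrays, 100.4, 107 and 401 on the treated (8) arrays, and 45.3, 41.7 and 66.9 on the treated (S9) arrays. The treated (S9) arrays all lay under the lowest of the other 6, whereas the third treated (8) array lay among the controls. The group means were 452 ± 94.8, 203 ± 172 and 51.3 ± 13.6 (SD, n = 3 arrays each). On the log2 scale LCP1 differed from control by -1.35 ± 0.45 (SE) in treated (8) cells and by -2.80 ± 0.45 in treated (S9) cells. The treated (S9) signals lay under the medians of their own arrays, a range in which the size of a fold is not well measured: with 1 or 64 added in place of 16 the value was -3.12 or -2.15. The difference between the treated sublines was -1.45 ± 0.45, and with single arrays left out it ran from -1.77 to -0.85. Leaving out the third treated (8) array gave a value in treated (8) cells of -1.95 ± 0.25.

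The other plastins had much narrower ranges. PLS1, the plastin of the intestinal brush border and the hair cells of the ear, had signals of 1932, 2088 and 2241 in controls, 1914, 1914 and 2228 in treated (8) cells, and 2022, 1722 and 1527 in treated (S9) cells. These groups overlapped, with differences from control of -0.05 ± 0.18 (limma adjusted p = 0.999) and -0.25 ± 0.18 (0.662). PLS3, the plastin of most solid tissues, had signals of 17984, 16424 and 16062 in controls, 14788, 13807 and 11580.5 in treated (8) cells, and 14559, 17449 and 12204 in treated (S9) cells. Each treated (8) array lay under the lowest control array, but the difference of -0.33 ± 0.19 did not pass the test (adjusted p = 0.838), nor did that of -0.20 ± 0.19 in treated (S9) cells (0.769). Neither of these plastins had a group mean as far from the control mean, as a ratio, as LCP1 had. Because LCP1 was chosen by its values, this order is a description and no test.

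**Figure D1:**
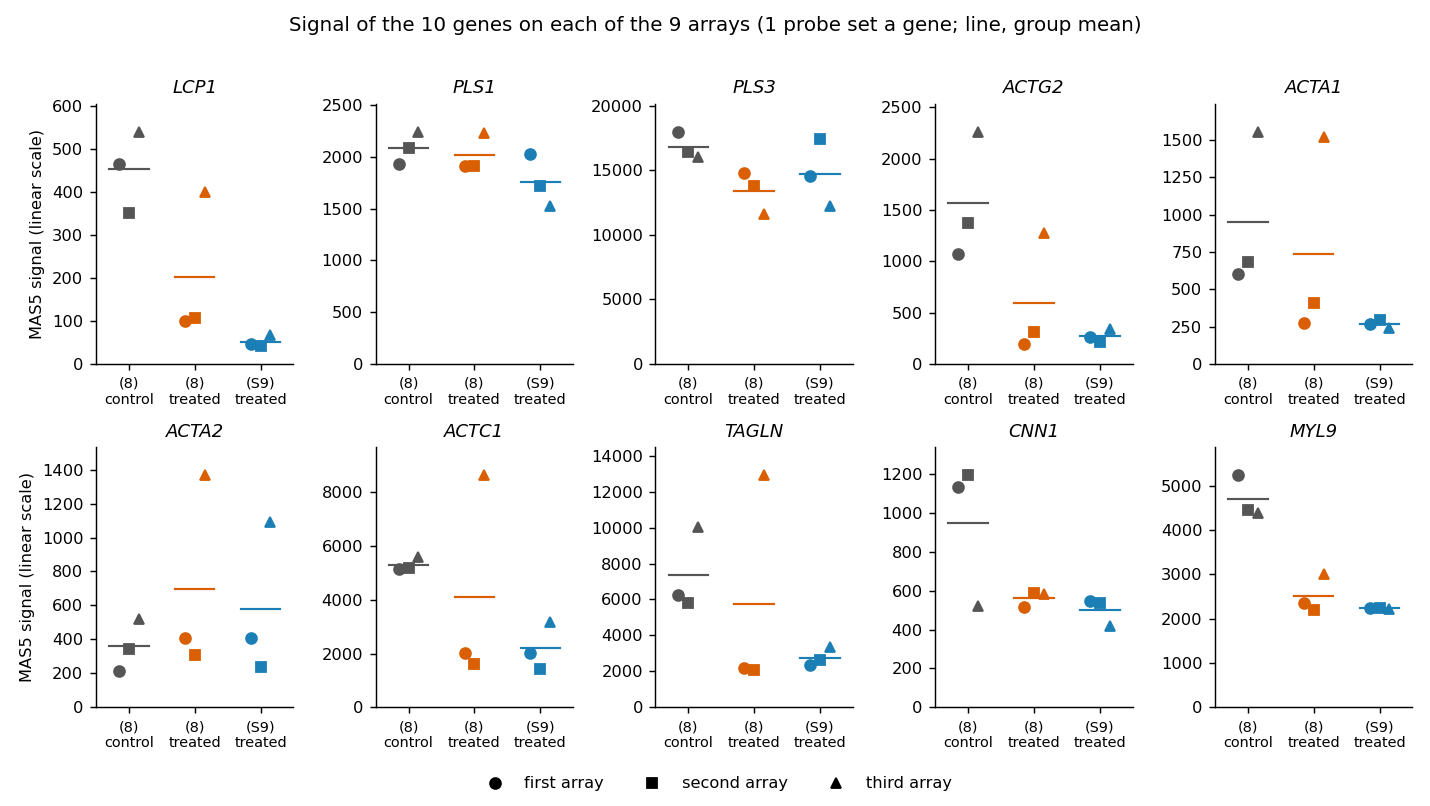
MAS5 signal (linear scale, starting at 0) of each of the 10 genes on each of the 9 arrays, with 1 probe set a gene, points for arrays and a line for the group mean. LCP1 lies between 41.7 and 66.9 on the treated (S9) arrays and between 351 and 539.5 on the control arrays, and the third treated (8) array is far above the other treated (8) arrays for LCP1, 4 actins and TAGLN.

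Of the actin genes, ACTG2, ACTA1 and ACTC1 were lower on all treated (S9) arrays than on any control array, and ACTA2 was not. ACTG2, the actin of gut and other visceral smooth muscle, had signals of 1070.4, 1370.4 and 2261 in controls (mean 1567 ± 619), 190.5, 312 and 1276 in treated (8) cells (593 ± 595), and 260.2, 213 and 336 in treated (S9) cells (269.7 ± 62.1). The third treated (8) array reached the control range, while the other 5 treated arrays lay at 336 or lower. Its differences from control were -1.76 ± 0.59 in treated (8) cells and -2.42 ± 0.59 in treated (S9) cells, the latter a control mean 5.81 times the treated one. Between the treated sublines the difference was -0.66 ± 0.59, and with single arrays left out it ran from -1.21 to 0.11, so its direction was not stable. Without the third treated (8) array, and with the third control array kept, the difference of treated (8) cells from control was -2.54 ± 0.36. A second ACTG2 probe set, with signals of 3.56 to 10.5, did not pass the filter.

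ACTA1, the skeletal muscle actin, had signals of 604, 684 and 1554 in controls (948 ± 527), 275, 411 and 1519 in treated (8) cells (735 ± 682), and 265, 296 and 243 in treated (S9) cells (268 ± 26.9). The third control array and the third treated (8) array were both far above the others of their groups. The difference from control was -0.61 ± 0.57 in treated (8) cells (limma adjusted p = 0.973) and -1.64 ± 0.57 in treated (S9) cells (adjusted p = 0.313), neither past the threshold. When the third treated (8) array was left out these values were -1.32 ± 0.39 (0.359) and, in treated (S9) cells, -1.64 ± 0.35 (0.1).

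ACTC1, the cardiac actin, had signals of 5143, 5174 and 5588 in controls (5302 ± 248), 2029.9, 1623 and 8626 in treated (8) cells (4093 ± 3931), and 2024, 1441 and 3168 in treated (S9) cells (2211 ± 879). The control arrays were close together, and of the 6 treated arrays the third treated (8) array lay above them and the other 5 below. The difference was -0.79 ± 0.56 in treated (8) cells (limma adjusted p = 0.911) and -1.33 ± 0.56 in treated (S9) cells (0.417). Without the third treated (8) array the value in treated (8) cells was -1.54 ± 0.31 (0.146), and the difference between the treated sublines was 0.21, against -0.54 with all arrays.

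ACTA2, the vascular smooth muscle actin that myofibroblasts also make, had higher means in treated than in control cells. Its signals were 213, 346 and 518 in controls (359 ± 153), 411, 306 and 1366 in treated (8) cells (695 ± 584), and 411, 237 and 1090.3 in treated (S9) cells (579 ± 451). In each group the third array was the highest, and the groups overlapped. The differences from control were 0.70 ± 0.65 (limma adjusted p = 0.972) and 0.48 ± 0.65 (0.854). Without the third treated (8) array the first was 0.07 ± 0.59 (0.995), and without the third (S9) array the second was -0.11 (adjusted p = 0.969). A pair of other ACTA2 probe sets, at 1.86 to 32.6 and 1.59 to 35, did not pass the filter.

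The smooth muscle binders and the myosin light chain had lower signals on most treated arrays than the control means, and their groups overlapped to different degrees. TAGLN encodes transgelin, an actin-binding protein that is an early marker of smooth muscle. Its brightest probe set had signals of 6233, 5799 and 10038 in controls (7357 ± 2332), 2168, 2098 and 12908 in treated (8) cells (5725 ± 6221), and 2349, 2619 and 3344 in treated (S9) cells (2771 ± 515). The third treated (8) array was the highest of all 9, and the other 5 treated arrays were below every control array. The difference was -0.87 ± 0.62 in treated (8) cells (limma adjusted p = 0.911) and -1.37 ± 0.62 in treated (S9) cells (0.453). Without the third treated (8) array these became -1.73 ± 0.28 (0.0697) and, in treated (S9) cells, an adjusted p of 0.0625. A second TAGLN probe set gave -0.66 ± 0.58 and -1.19 ± 0.58, also with no call, and the first of these was -1.47 ± 0.28 (limma adjusted p = 0.121) without the third treated (8) array. Its treated (S9) arrays at 1779 to 2657 lay under the controls at 4012 to 6947. The dimmest TAGLN probe set (signals of 26.5 to 173) gave 0.37 ± 0.46 and -0.38 ± 0.46. Its second control array, at 26.5, was far below the other controls at 103 and 124, and without it the values were -0.17 ± 0.36 and -0.91 ± 0.36.

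CNN1 encodes calponin, which binds actin and damps the myosin motor in smooth muscle. Its signals were 1132, 1192 and 519 in controls (948 ± 372), 518, 587 and 583 in treated (8) cells (563 ± 38.6), and 547, 534 and 420.5 in treated (S9) cells (501 ± 69.7). Here the third control array was the one that stood apart, at the level of the treated arrays, and the third treated (8) array did not. The differences were -0.65 ± 0.30 (limma adjusted p = 0.697) and -0.82 ± 0.30 (0.343). Without the third control array they were -1.03 (0.156) and -1.20 (0.0903).

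MYL9, the regulatory light chain of smooth muscle and nonmuscle myosin, had treated and control arrays that did not overlap on its brighter probe set. That probe set had signals of 5238, 4457 and 4396 in controls (4697 ± 469), 2349.7, 2188 and 3007 in treated (8) cells (2515 ± 434), and 2247, 2247 and 2218 in treated (S9) cells (2238 ± 16.5). All 6 treated arrays were below all control arrays, the third treated (8) array included. The difference was -0.91 ± 0.18 in treated (8) cells (limma adjusted p = 0.119) and -1.06 ± 0.18 in treated (S9) cells (0.0539), neither called. With the third treated (8) array left out the second difference was called (-1.06 ± 0.16, limma adjusted p = 0.0359) and the first was not (-1.04 ± 0.18, 0.081). That array is in neither group of the second difference, which kept its size and had a smaller SE. The second difference was not called with any other single array left out or with only the groups compared. The dimmer probe set (signals of 51.8 to 132) gave -0.16 ± 0.21 (0.999; -0.34 ± 0.20 without the third treated (8) array) and -0.74 ± 0.21 (0.209), and its treated (S9) arrays were also under all controls.

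**Figure D2:**
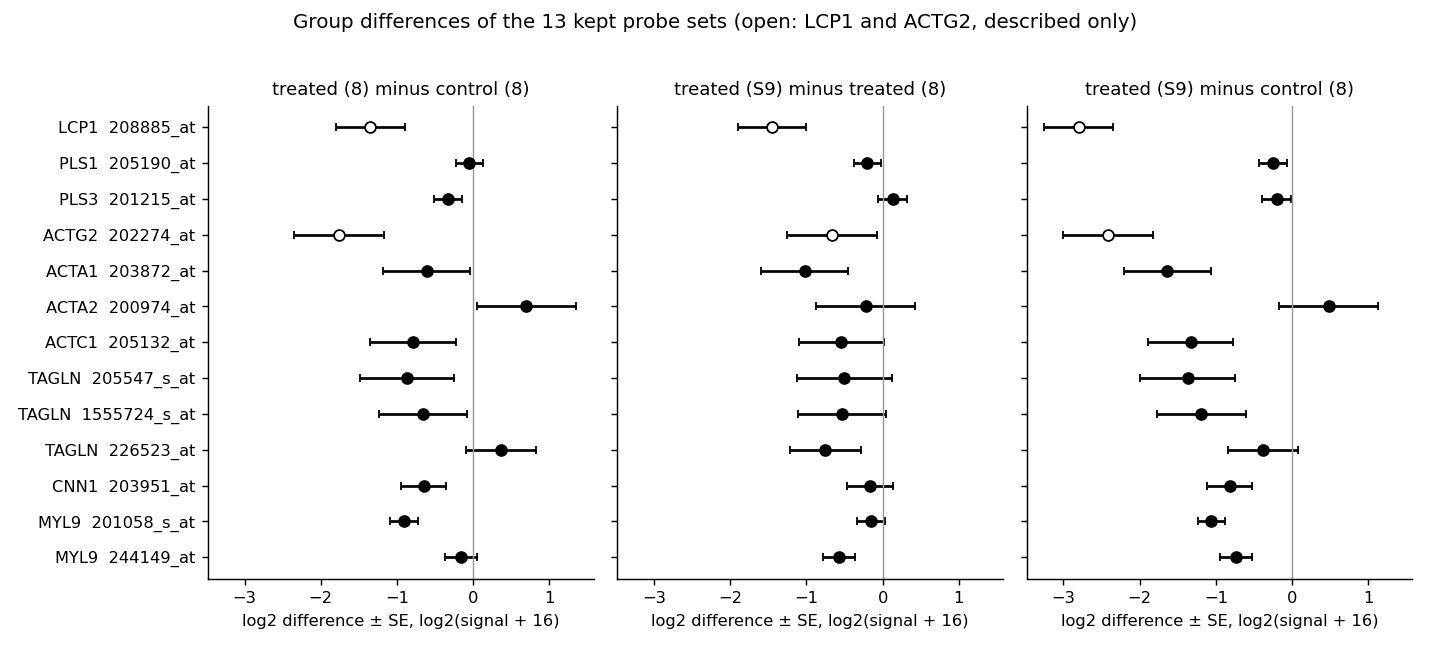
Log2 difference ± SE (log2 of signal + 16, n = 3 arrays a group) of the 13 kept probe sets in the 3 comparisons, with LCP1 and ACTG2 as open symbols because they are described only. In treated (S9) against control (8) cells 12 of the 13 lie below 0, from -0.20 for PLS3 to -2.80 for LCP1, and ACTA2 lies above.

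In treated against control (8) cells, 11 of the 13 kept member probe sets were below 0 and 2 above, with a median of -0.65 against 0.02 over all kept probe sets. Counts out of 13 and member medians, here and in the other comparisons, include LCP1 and ACTG2, which were chosen by their values. Called in this comparison were 0 of the 13 (0 of 11 for the 8 tested genes; 1 of those 11 had an unadjusted limma p under 0.05, as did 7.52% of kept probe sets), where 0.273% of kept probe sets were called higher and 0.0273% lower. For 2 of the 13 (PLS3 and MYL9) every treated array lay under every control array, which held for 6.04% of kept probe sets. Leaving out the third treated (8) array, 0 of the 11 were called.

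In treated (S9) against control (8) cells, 12 of the 13 were below 0, with a median of -1.06 against -0.01 over all kept probe sets. Of the 11 probe sets of the 8 tested genes 0 were called, and 5 had an unadjusted limma p under 0.05, as did 11.3% of kept probe sets. Of all kept probe sets, 0.314% were called higher and 0.075% lower. The groups did not overlap for 8 of the 13 (6 of the 11 for the tested genes), all of them lower, against 8.35% of kept probe sets: LCP1, ACTG2, ACTA1, ACTC1, a pair of TAGLN probe sets and both of MYL9. Without the third treated (8) array 1 of the 11 (MYL9) was called, with 0.167% of kept probe sets called lower. LCP1 passed the same threshold with all arrays, and lost it without any 1 array other than that one, but it was chosen by its values and this is no test of it.

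In treated (S9) against treated (8) cells, 0 of the 13 were called and 1 of the 11 had an unadjusted limma p under 0.05, as did 2.43% of kept probe sets; over all kept probe sets 0% were called higher and 0% lower. The median was -0.53 against -0.04 over all kept probe sets. LCP1, the dim TAGLN probe set and the dim MYL9 probe set were lower with no overlap, 3 of the 13 (2 of the 11 for the tested genes) against 4.05% of kept probe sets. Differences of the brightest probe set of each gene ranged from 0.13 ± 0.19 for PLS3 to -1.45 ± 0.45 for LCP1, and every limma adjusted p of the tested genes was 1. With single arrays left out, the differences of ACTG2, ACTA2, ACTC1 and TAGLN (brightest probe sets) ran to both sides of 0. A p that misses the threshold does not show that the sublines were alike in these genes.

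The third treated (8) array was high in the muscle actins, TAGLN and LCP1 and not in the other members. Its signal was 6.05 times the mean of the other treated (8) arrays for TAGLN, 5.08 times for ACTG2, 4.72 for ACTC1, 4.43 for ACTA1, 3.87 for LCP1 and 3.81 for ACTA2. For MYL9 it was 1.33 times, for PLS1 1.16, for CNN1 1.05 and for PLS3 0.81. Of the 13 kept member probe sets 8 were at least 2-fold above on this array, against 7.52% of all kept probe sets. Of the stromal markers 17 of 18 were higher on this array than on both other treated (8) arrays, among them THY1, a surface protein, at 3393 against 916.5 and 1136.7, and LUM, a matrix protein, at 119.7 against 5.48 and 15.7. So were 11 of 15 blood markers and 17 of 23 genes of cytoplasmic actins and nonmuscle binders. The counts were 11 of 20 for smooth muscle contractile genes, 8 of 19 for SRF, its coactivators and targets, and 11 of 26 for striated muscle genes. They were 6 of 12 for gut markers and 6 of 12 for pluripotency markers. The share over all genes with a probe set of their own was 37.8%. THY1 was highest on the third array of every group, and the third control array was higher still at 3883.7, against 2221 and 1876.2 on the other controls. LUM was at 1.29 to 22.2 in controls. The summed blood marker signal was 2632 on this array and 1412 to 1740 on the other 8. The summed stromal signal was 62348 on it, 37193 and 39894 on the other treated (8) arrays, 30668 to 35568 in controls and 37534 to 50302 in treated (S9) cells. The part of stromal or blood cells or of the array itself in the member values was not tested.

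**Figure D3:**
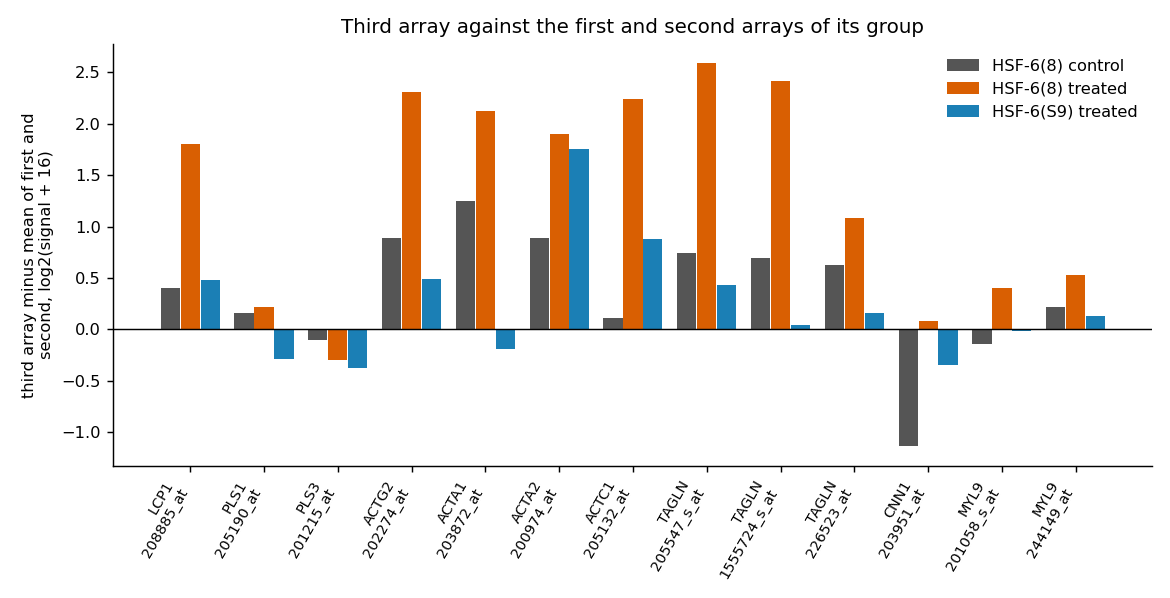
Bars give the third array minus the mean of the first and second arrays of its group on the log2(signal + 16) scale, for every kept member probe set and each group. The treated (8) bars reach 2.59 for TAGLN, 2.31 for ACTG2, 2.24 for ACTC1 and 1.80 for LCP1, and lie at 0.40 or lower for MYL9 (brighter probe set), PLS1, PLS3 and CNN1.

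**Figure D4:**
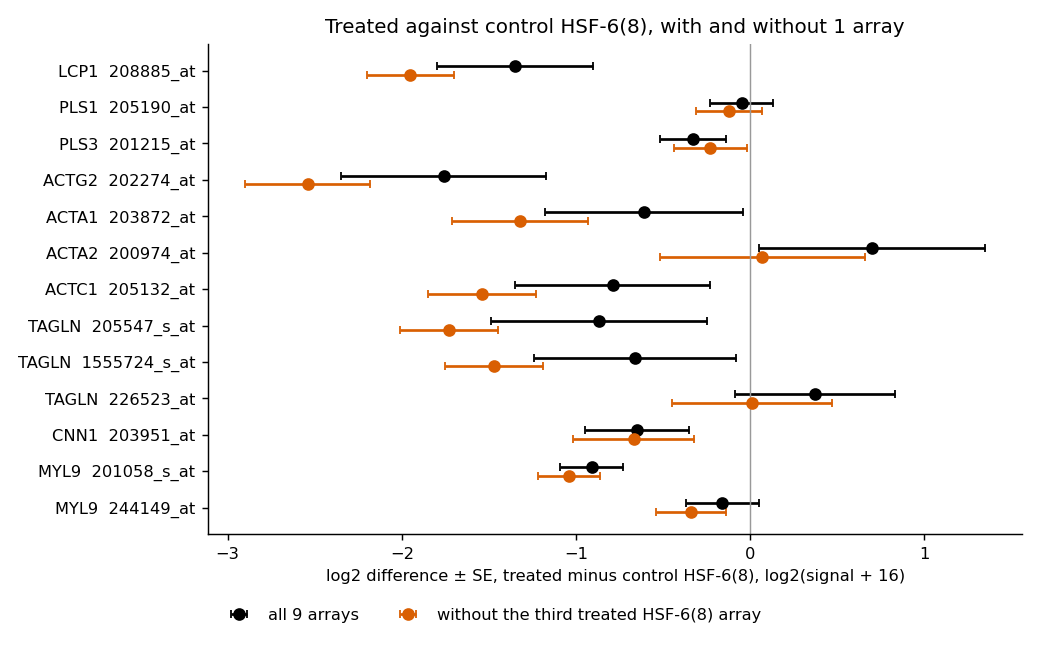
Log2 difference ± SE between treated and control (8) cells for the 13 kept probe sets, with all 9 arrays and without the third treated (8) array. The third control array is in both. Without the third treated (8) array TAGLN moves from -0.87 to -1.73, ACTC1 from -0.79 to -1.54 and ACTG2 from -1.76 to -2.54, while MYL9 stays near -1 (-0.91 and -1.04).

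Across the 9 arrays the signals of most of the members that were lower went up and down together. LCP1 had a Pearson r of 0.94 with ACTG2, 0.89 with ACTA1 and with MYL9, 0.88 with ACTC1 and 0.87 with TAGLN on the log2(signal + 16) scale. ACTC1 and TAGLN had an r of 0.95, and ACTG2 and TAGLN 0.93. ACTA2 and PLS3 stood outside, with r of 0.11 and 0.14 with LCP1 and of -0.88 with each other. CNN1 had an r of 0.31 with TAGLN, 0.56 with LCP1 and 0.76 with MYL9, its highest, and of -0.49 with ACTA2, its lowest. These values describe 9 arrays that share 3 groups and the third treated (8) array, and carry no test.

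The 5 genes outside the set most like LCP1 over the 9 arrays were GRB10 (r = 0.974), RASGRF2 (0.969), PLSCR1 (0.967), NDUFAF5 (0.959) and AK4 (0.957). Those most like ACTG2 were NDUFAF5 (0.981), EFNA2 (0.979), ANXA3 (0.971), ETS1 (0.969) and GRB10 (0.969), so GRB10 and NDUFAF5 were on both lists. They share the low treated arrays and the third treated (8) array as a high one: GRB10, an adaptor of the insulin receptor, was at 3227 to 3333 in controls, 2198, 2185 and 3319.5 in treated (8) cells, and 1975 to 2245 in treated (S9) cells. ETS1, a transcription factor gene, was at 1242 to 2080.5 in controls, 519.7, 562.5 and 1425 in treated (8) cells, and 340.3 to 707 in treated (S9) cells.

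Other genes of the actin and smooth muscle pathways had medians near 0. Of 23 kept genes of cytoplasmic actins and nonmuscle binders, 0 were called by limma in any comparison, with medians of -0.09 in treated (8) and 0.00 in treated (S9) cells against control and 2 and 4 genes with an unadjusted p under 0.05 (0 between the treated sublines). ACTB, the main cytoplasmic actin, had a difference of -0.28 ± 0.25 (adjusted p = 0.969) in treated (8) cells and -0.27 ± 0.25 (0.759) in treated (S9) cells. The largest values in that list were 1.04 ± 0.25 (0.192) for GSN, which severs filaments, in treated (8) cells and -0.98 ± 0.57 (0.583) for the tropomyosin TPM4 in treated (S9) cells. Of 20 kept smooth muscle contractile genes outside the set 0 were called by limma, with medians of -0.05 and -0.08 and 3 genes with an unadjusted p under 0.05 in each of these comparisons (1 between the treated sublines). Among them CSRP1, a LIM protein of smooth muscle, had 1.53 ± 0.61 (0.575) in treated (8) cells (0.73 ± 0.36, 0.683, without the third treated (8) array) and LMOD1, which starts actin filaments, 1.29 ± 0.60 (0.466) in treated (S9) cells. Over all 13518 kept genes, 0.481% were called in treated (8) and 0.592% in treated (S9) cells against control, and 0% between the treated sublines, and the median was 0 in both comparisons with control. An unadjusted limma p under 0.05 was found for 8.84%, 12.8% and 2.18% of kept genes in treated (8) and treated (S9) cells against control and between the treated sublines, and the list counts are to be read against these shares.

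Of 19 kept genes of SRF, its coactivators and its targets 0 were called in any comparison, with medians of -0.18 in treated (8) and -0.23 in treated (S9) cells and 2 and 3 genes with an unadjusted limma p under 0.05 (0 between the treated sublines). SRF itself had signals of 1140.4, 1011 and 749.5 in controls, 794, 736 and 605 in treated (8) cells, and 748, 861 and 862 in treated (S9) cells, which overlap, and a difference of -0.42 ± 0.21 (adjusted p = 0.737) in treated (8) cells. The largest values in treated (8) cells were both above 0, at 0.73 ± 0.57 (limma adjusted p = 0.931) for ANKRD1 and 0.69 ± 0.53 (0.93) for FOS. ANKRD1 had signals of 34.8, 69.4 and 263.1 on the treated (8) arrays. The largest value in treated (S9) cells was -1.25 ± 0.27 (0.117) for TGFB1I1, which encodes a focal adhesion protein. Its signals there were 222.6 to 305.8 against 586 to 733.3 in controls. It was called only when the third treated (8) array, which is in neither group compared, was left out (limma adjusted p = 0.0383). The difference stayed at -1.25, and in the other settings run the adjusted p was 0.059 to 0.31. MYOCD, the cardiac and smooth muscle coactivator myocardin, had -0.66 ± 0.59 (0.754) from signals of 27.2 to 161.3.

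Markers of other cell types that make these proteins were mixed. Of 15 blood markers 3 were above the median signal on every array and 3 on none, of 26 striated muscle genes 8 and 9, of 12 gut markers 2 and 3, and of 18 stromal markers 13 and 0. Among those above on every array were LYN, a kinase of blood and other cells, at 264.7 to 801.4, and TNNT1, a troponin of slow skeletal muscle, at 856.3 to 6726. Those above on none included some that define a lineage, chosen after their values were seen. PTPRC and SPI1 of blood cells had signals of 1.36 to 43.5 and 4.81 to 22.1, the muscle factors MYOD1 and MYOG 5.41 to 24.2 and 2.64 to 8.42, and the gut factor CDX2 3.34 to 11.5. Pluripotency markers were bright, SOX2 at 15792 to 37824 and LIN28A at 21802 to 38677. Of 10 kept blood markers VAV1 alone was called, a signal transducer of blood cells. It was higher in both comparisons with control: its signals were 103, 72.6 and 87.8 in controls, 294.3, 342.3 and 198.2 in treated (8) cells, and 294.1, 277 and 228.7 in treated (S9) cells. The differences were 1.48 ± 0.23 (limma adjusted p = 0.0454) and 1.45 ± 0.23 (0.0422), opposite in sign to LCP1, and with single arrays left out the adjusted p ran from 0.0279 to 0.211 and from 0.021 to 0.163. The first call was lost when any 1 array was left out other than the third array of a treated group, and the second when any 1 was left out other than the third treated (8) array. Both calls were also lost with quantile normalization (adjusted p = 0.0959 and 0.0691), with no filter (0.0986 and 0.0977) and with only the groups compared (0.112 and 0.0636), and the first with offsets of 1 and 64 (0.051 and 0.0516). In both comparisons with control limma called 0 of 12 striated muscle, 4 gut, 16 stromal and 12 pluripotency genes. At an unadjusted p under 0.05 these lists had 3, 0, 7 and 0 genes in treated (8) cells and 4, 1, 4 and 1 in treated (S9) cells, where the shares of all kept genes were 8.84% and 12.8%. FN1, fibronectin, had the largest stromal values at 1.32 ± 0.31 (0.199) and 1.41 ± 0.31 (0.121). Next in treated (8) cells were COL1A1 (1.10 ± 0.27), FBN1 (0.96 ± 0.36), COL6A3 (0.94 ± 0.28) and PDGFRA (0.91 ± 0.29), all higher. The kept stromal genes below 0 there were THY1 (-0.72 ± 0.49), TWIST1 (-0.62 ± 0.44) and DCN (-0.08 ± 0.28).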

How the data were processed

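Per the submitters' processing notes, the deposited intensity of each probe set was made by the authors with Affymetrix Expression Console and MAS5, a method that combines matched and mismatched probes and scales whole arrays. No version of either is stated in the sources used here. The 9 arrays carried 54675 probe sets, of which 62 were controls, 41091 mapped to 1 gene, 1801 to several and 11721 to none. Symbols were updated by Entrez number for 41037.

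From these values, log2(signal + 16) was taken, and a probe set was kept where at least 3 arrays lay above their own median (29325 probe sets). All 9 arrays were fitted together by limma 3.58.1 (R 4.3.3; lmFit, then eBayes, 6 residual and 3.2 prior degrees of freedom), with two-sided p-values adjusted by Benjamini-Hochberg. A gene was represented by its brightest kept probe set in lists (13518 genes). No signal has a counting depth, and the number of arrays limits precision. The members and lists were chosen with earlier results of these data known. The text names all members, up to 4 called genes or else the genes of largest change in a list (up to 2), and the 5 genes most like LCP1 and ACTG2; ACTB, SRF and the defining and stromal markers given by signal were chosen after their values were seen.

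Arrays of the same prime mark correlated after removing group means, with r of 0.32, 0.28 and 0.59 between control and treated (8), 0.27, 0.22 and 0.41 between the treated sublines, and 0.12, 0.20 and 0.54 between control and treated (S9), all above 0.1. They were therefore also fitted as a replicate block. Alternatives were offsets of 1 and 64, no filter or a 75th percentile filter, quantile normalization, 1 probe set a gene, eBayes with trend and robust, only the groups compared, the third arrays as a batch block, no fold minimum, and each array left out. Leaving out the third array of every group was added after seeing the data. Tested on simulated data of 29325 probe sets for treated against control (8), with 200 changed by a log2 of 2 in each of 5 runs, the calling steps recovered 72.2% and 5.23% of calls were false. The simulated noise was independent between arrays and had no shift of the third arrays. These shares therefore need not hold for the real arrays or for smaller changes.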

Additional observations from a re-analysis of the deposited data

How the results depend on the processing

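Counts of member probe sets called depended on the processing; they include LCP1 and ACTG2, which were chosen by their values, so they test nothing about those genes. In treated against control (8) cells the count of 0 became 2 without the third array of each group, and ran from 0 to 2 with single arrays left out. In treated (S9) against control (8) cells the count of 1 became 0 with an offset of 1 or with no filter, 2 with an offset of 64, with 1 probe set a gene, with trend and robust, with only the groups compared and with the replicate block, and 3 with the third arrays fitted as a batch, and ran from 0 to 3 with single arrays left out. Between the treated sublines it was 0 in every setting run. The cause was not tested. Of the 11 probe sets of the 8 tested genes, 0 or 1 were called in each comparison and setting run.

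MYL9 was called in treated (S9) against control (8) cells with an offset of 64 (adjusted p = 0.0347), the 75th percentile filter (0.0231), 1 probe set a gene (0.0219), trend and robust (0.0159) and the third arrays as a batch block (0.0298). The replicate block gave it an adjusted p of 0.0506 and changed no call of the 8 tested genes, while the count over all kept probe sets went from 114 to 233 in this comparison and from 88 to 148 in treated against control (8) cells. Without the third array of each group TAGLN was called in treated against control (8) cells (-1.49, adjusted p = 0.0458). LCP1 in treated (S9) against control (8) cells was -3.12 with an offset of 1 and -2.15 with 64.

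Between the treated sublines PLS3 went from 0.13 to -0.04 with quantile normalization and TAGLN from -0.50 to 0.22 without the third array of each group. With single arrays left out, ACTA2 ran from -0.81 to 0.41, ACTC1 from -0.99 to 0.21 and TAGLN from -0.95 to 0.36 there. ACTG2, which is described only, ran from -1.21 to 0.11 there. In treated (S9) against control (8) cells ACTA2 ran from -0.11 to 0.96. Of the differences of the 8 tested genes under alternatives, 466 kept their direction and side of the threshold, 7 reversed and 7 passed the threshold. Depth does not apply to array signals. Dim probe sets are limited by the added 16.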
